A study of Saccharomyces cerevisiae with 24 samples.

Results

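The genes for the subunits of the yeast 26S proteasome, together with RPN4, were followed through 3 strains of Saccharomyces cerevisiae and 4 RNA pools. Members were taken from the table of counts per gene by systematic name, which gave 33 of 6369 genes. The 20S core gave 7 alpha-ring genes, SCL1 (YGL011C), PRE8 (YML092C), PRE9 (YGR135W), PRE6 (YOL038W), PUP2 (YGR253C), PRE5 (YMR314W) and PRE10 (YOR362C). It also gave 7 beta-ring genes, PRE3 (YJL001W), PUP1 (YOR157C), PUP3 (YER094C), PRE1 (YER012W), PRE2 (YPR103W), PRE7 (YBL041W) and PRE4 (YFR050C). The base of the 19S particle gave 6 ATPase genes, RPT1 (YKL145W), RPT2 (YDL007W), RPT3 (YDR394W), RPT4 (YOR259C), RPT5 (YOR117W) and RPT6 (YGL048C), and 4 others, RPN1 (YHR027C), RPN2 (YIL075C), RPN10 (YHR200W) and RPN13 (YLR421C). The lid gave 8, RPN3 (YER021W), RPN5 (YDL147W), RPN6 (YDL097C), RPN7 (YPR108W), RPN8 (YOR261C), RPN9 (YDR427W), RPN11 (YFR004W) and RPN12 (YFR052W), and RPN4 (YDL020C) is the activator. The strains were ∆RPL22A, ∆RPL22B and WT. RPL22A and RPL22B are paralogs that each code for the large-subunit ribosomal protein Rpl22, and each deletion strain carries the other paralog. All cultures were in log phase (OD 0.6 to 0.8) and received cycloheximide, which holds ribosomes on mRNA, and the labels give the RNA as polyA RNA. Lysates were separated on sucrose gradients into Monosome (single ribosomes), PolysomeLow (light polysomes) and PolysomeHigh (heavy polysomes), and Input was the unfractionated mRNA. Each of the 12 groups had 2 libraries, given as biological duplicates. The series title speaks of oxidative stress, but the labels of the 24 libraries name no stress treatment.

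Library totals lay between 2435632 and 10947937 counts. The ribosomal DNA locus took 62.5% to 97.1% of a library, which left 314212 to 1950344 counts for other genes. The 33 genes held 1341 to 9789 counts per library, and the lowest single count of a member was 9. RPL22A had 3 counts in all over the 8 ∆RPL22A libraries, 40 over the 8 ∆RPL22B libraries and 25 over the 8 WT libraries, so this gene tells little about the labels. RPL22B had 6354 counts in ∆RPL22A, 0 in ∆RPL22B and 1329 in WT. The deletion strains also differed from WT in marker genes. MF(ALPHA)1, a pheromone gene of alpha cells, had 27891 counts in ∆RPL22A, 16785 in ∆RPL22B and 11 in WT, and MET17 had 824, 788 and 0 counts in these strains. LYS2 had 2 counts in ∆RPL22A, 0 in ∆RPL22B and 955 in WT. A difference from WT therefore cannot be told apart from one of mating type or markers. HIS3, another marker gene, had 2447 counts in ∆RPL22A, 784 in ∆RPL22B and 670 in WT, not scaled for depth. The deletion strains thus also differed from each other in a marker gene, and its part in their differences was not tested. By mean correlation of log2 CPM (scaled counts per 1000000 of a library), each of the 24 libraries was closest to the other libraries of its own pool. The margin was smallest for ∆RPL22A Monosome replicate 2, with 0.909 in its own pool and 0.902 with PolysomeLow, and this library was kept in the alternative named next. In 1 alternative, 4 libraries that earlier work on these data had set nearest to another pool were left out together: WT PolysomeHigh replicate 2, ∆RPL22A Input replicate 1, ∆RPL22A PolysomeLow replicate 2 and ∆RPL22B PolysomeLow replicate 1.

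The proteasome degrades proteins marked with ubiquitin. Its 20S core is a barrel of alpha rings, which gate the entry, and beta rings, which hold the cutting sites, and the 19S particle binds, unfolds and feeds in the substrates. In budding yeast the subunit genes are switched on together by Rpn4, a short-lived transcription factor that the proteasome itself destroys. Rpn4 binds the proteasome-associated control element (PACE), which lies before most subunit genes.

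The element was searched as the letters GGTGGCAAA on both strands of each promoter, from 250 bases before to 50 bases after the start codon, in the RefSeq R64 genome of strain S288C. It stood in 27 of 33 members, or 81.8%, against 71 of 5887 genes, or 1.21%, over all promoters searched. The 6 members without these letters in the window were PRE5, PUP1, RPN8, RPN10, RPN13 and RPN4 itself. In the members that held it, the element lay 75 to 174 bases before the start codon. The 10 windows of 49 bases printed here belong to members whose values in the fractions or strains are given below, and they are written 5′ to 3′ along the coding strand of the gene with the element in capitals. SCL1 and RPN12 carry the reverse complement, TTTGCCACC, and the others carry it in the direction of the gene. A match describes letters only.
SCL1, chrVII:475327-475375, minus strand: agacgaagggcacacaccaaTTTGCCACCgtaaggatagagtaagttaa
PRE8, chrXIII:86831-86879, minus strand: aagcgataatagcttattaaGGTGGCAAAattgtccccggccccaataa
PRE9, chrVII:761213-761261, plus strand: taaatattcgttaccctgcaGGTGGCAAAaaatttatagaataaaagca
PRE10, chrXV:1018846-1018894, minus strand: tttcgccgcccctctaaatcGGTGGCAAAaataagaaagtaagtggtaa
PRE3, chrX:435025-435073, plus strand: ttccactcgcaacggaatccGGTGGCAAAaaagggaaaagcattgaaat
PRE1, chrV:177673-177721, plus strand: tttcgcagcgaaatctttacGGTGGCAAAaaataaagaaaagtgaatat
RPT2, chrIV:437896-437944, plus strand: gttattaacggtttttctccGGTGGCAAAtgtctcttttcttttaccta
RPN1, chrVIII:164828-164876, minus strand: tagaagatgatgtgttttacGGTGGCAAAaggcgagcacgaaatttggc
RPN11, chrVI:153249-153297, plus strand: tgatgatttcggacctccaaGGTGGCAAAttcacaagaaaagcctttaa
RPN12, chrVI:252388-252436, plus strand: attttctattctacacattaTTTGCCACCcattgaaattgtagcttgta

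In Input, all 32 subunit genes lay above the median of the tested genes with a known length, and the 20S core genes were mostly the higher ones. On the scale of CPM per kilobase of coding length, the median alpha-ring gene stood at 30.2 in ∆RPL22A, 23.3 in ∆RPL22B and 23.7 in WT. The median beta-ring gene stood at 30.7 in ∆RPL22A, 23.9 in ∆RPL22B and 24.4 in WT. ATPase genes were lower, with medians of 13.8 in ∆RPL22A, 15.1 in ∆RPL22B and 14.4 in WT. The lid genes had medians of 15.8 in ∆RPL22A, 12.4 in ∆RPL22B and 12.5 in WT, and the other base genes had medians of 17.3, 15.3 and 15.6. The median of all tested genes with a known length was 3.11 in ∆RPL22A, 3.15 in ∆RPL22B and 3.10 in WT. PUP3, a beta-ring gene, was the highest member with 40.4 in ∆RPL22A, 37.8 in ∆RPL22B and 34.0 in WT. RPN2, a scaffold of the base, was the lowest subunit gene with 6.998 in ∆RPL22A, 10.1 in ∆RPL22B and 9.20 in WT. The highest subunit gene was thus 5.78-fold above the lowest in ∆RPL22A, 3.73-fold in ∆RPL22B and 3.70-fold in WT. RPN4 lay under every subunit gene, with 4.77 in ∆RPL22A, 5.54 in ∆RPL22B and 5.36 in WT.

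**Figure D1:**
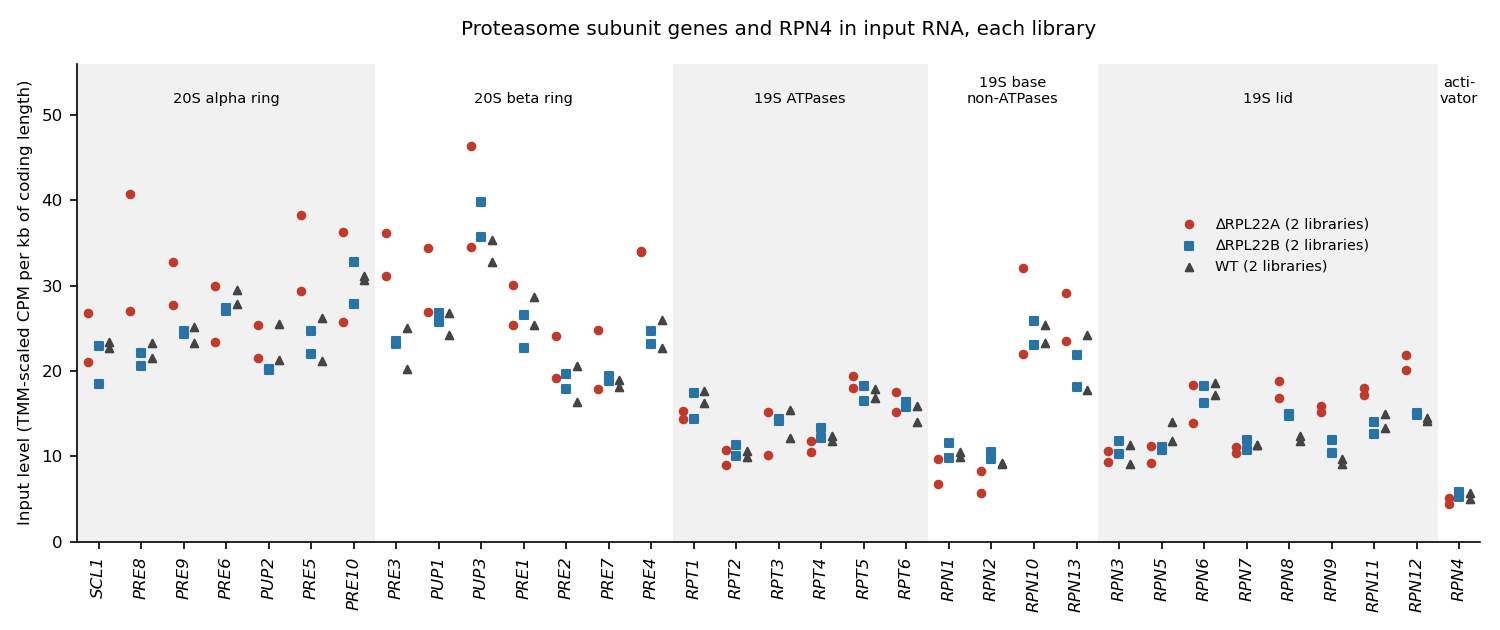
Input level of each of the 33 genes (vertical axis, CPM per kilobase of coding length) by subcomplex, with 1 point per library and 2 libraries per strain. The 20S core genes lie mostly above the 19S genes, RPN4 is the lowest gene, and PUP3 is the highest by mean.

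The same genes spread much further apart in the fractions. In PolysomeLow the highest subunit gene was 40.3-fold above the lowest in ∆RPL22A, 24.0-fold in ∆RPL22B and 30.2-fold in WT, per length. The corresponding fold was 17.2, 14.4 and 21.5 in Monosome and 8.86, 11.1 and 8.57 in PolysomeHigh, in the same order of strains. The 33 genes together took 0.384% to 0.427% of the counts outside ribosomal DNA in Monosome, against 0.612% to 0.705% in Input, and these ranges did not overlap. Such a share also depends on the other genes of the pool, and no other gene set was summed. In CPM per kilobase, the median of the 32 subunit genes was 18.7 in Monosome against 21.2 in Input of ∆RPL22A. It was 14.8 against 18.1 in ∆RPL22B and 16.1 against 18.2 in WT. The summed share of the 33 genes was 0.362% to 0.663% in PolysomeLow and 0.459% to 0.683% in PolysomeHigh. A CPM is a share of one pool, so it does not give the number of transcripts that the pool holds.

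Against Input, 6 of the 14 genes of the 20S core were higher in PolysomeLow in every strain (PRE5, PRE10, PRE3, PUP3, PRE1 and PRE7), and the 2 large scaffold genes RPN1 and RPN2 were lower. A gene was called where edgeR's quasi-likelihood test gave a Benjamini-Hochberg adjusted p under 0.05 over 5380 tested genes, and all 33 members were tested. In ∆RPL22A 14 members were called higher and 2 lower, where 25.6% of all tested genes were called, 17.2% higher and 8.38% lower. In ∆RPL22B 8 were higher and 3 lower, with 33% of genes called, 20.7% higher and 12.4% lower. In WT 11 were higher and 3 lower, with 34.4% called, 20.8% higher and 13.6% lower. The ∆RPL22A count of 16 was 2 without Input replicate 2 and 5 without PolysomeLow replicate 1. The ∆RPL22B count of 11 was 6 without PolysomeLow replicate 2. The WT count of 14 was 9 without Input replicate 1, 8 without Input replicate 2 and 8 without PolysomeLow replicate 2. Of the 14 core genes, 11 were called higher in ∆RPL22A, 6 in ∆RPL22B and 8 in WT, and none was called lower. SCL1, PUP2 and PUP1 were called in no strain, with log2 fold changes of -0.0029 for SCL1 in WT to 0.59 for PUP1 in ∆RPL22A. The 14 core genes had a median log2 fold change of 1.07 in ∆RPL22A, 0.62 in ∆RPL22B and 0.81 in WT, against -0.04, -0.04 and -0.12 over all genes. The 6 ATPase genes had medians of -0.27, -0.39 and -0.57 in these strains, and the 8 lid genes 0.22, 0.08 and -0.13.

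In each of the 3 strains PRE5, PRE10, PRE3, PUP3, PRE1, PRE7, RPN13 and RPN8, 8 members in all, were called higher in PolysomeLow, where 13.3% of all genes were. RPN1 and RPN2 were called lower in each strain, where 4.18% of genes were. RPN13, a ubiquitin receptor of the base and the shortest member with 471 coding bases, had 69.9 and 34.2 CPM in PolysomeLow of ∆RPL22A, against 13.7 and 11.1 CPM in Input. In ∆RPL22B it had 18.2 and 67.6 CPM in PolysomeLow, against 8.53 and 10.3 CPM in Input, and in WT 45.4 and 39.9 CPM against 8.39 and 11.4 CPM. Every PolysomeLow library was above every Input library, although the duplicates of ∆RPL22B lay far apart. Its log2 fold change was 2.07 ± 0.40 (SE) in ∆RPL22A, 2.18 ± 0.41 in ∆RPL22B and 2.12 ± 0.42 in WT (adjusted p = 0.00125, 0.000168 and 0.000273). The call was lost in ∆RPL22A without Input replicate 2 or PolysomeLow replicate 1, with adjusted p of 5.74e-09 to 0.0546 over all alternatives. It was lost in ∆RPL22B without PolysomeLow replicate 2, with adjusted p up to 0.0593.

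PRE1, a beta-ring gene, had 43.5 and 38.3 CPM in PolysomeLow of ∆RPL22A against 17.9 and 15.1 CPM in Input, 32.6 and 62.6 against 13.5 and 15.8 CPM in ∆RPL22B, and 40.6 and 53.8 against 17.1 and 15.2 CPM in WT. No PolysomeLow library overlapped an Input library. PRE1 rose by 1.30 ± 0.29 in ∆RPL22A, 1.69 ± 0.29 in ∆RPL22B and 1.54 ± 0.30 in WT on the log2 scale (adjusted p = 0.00205, 7.52e-05 and 0.000202). The ∆RPL22A call was lost without Input replicate 2, with adjusted p up to 0.06 over its alternatives. PRE3 codes for the beta subunit with the caspase-like site. It had 59.4 and 51.2 CPM in PolysomeLow of ∆RPL22A against 23.4 and 20.2 CPM in Input, 26.8 and 34.1 against 15.2 and 15 CPM in ∆RPL22B, and 30.2 and 44.2 against 13.1 and 16.2 CPM in WT. Again the pools did not overlap within a strain, and the log2 fold change was 1.34 ± 0.26, 1.01 ± 0.26 and 1.33 ± 0.27 (adjusted p = 0.00122, 0.00332 and 0.000334). These 3 calls held without any single library. RPN1, a large scaffold that binds ubiquitin-like proteins, ran the other way. It had 10.8 and 9.23 CPM in PolysomeLow of ∆RPL22A against 20.1 and 29 CPM in Input, 12.4 and 10.2 against 29.1 and 34.4 CPM in ∆RPL22B, and 10.6 and 7.99 against 29.7 and 31.4 CPM in WT. All 6 PolysomeLow libraries were below all 6 Input libraries. Its log2 fold change was -1.28 ± 0.26, -1.48 ± 0.25 and -1.69 ± 0.28 (adjusted p = 0.00146, 7.56e-05 and 4.5e-05), and the ∆RPL22A call was lost without Input replicate 2, with adjusted p up to 0.0575. RPN2, the other large scaffold, had log2 fold changes of -1.17, -1.22 and -1.22.

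In Monosome most ATPase genes were lower than in Input in ∆RPL22B and WT. Of the 6 genes, 1 was called lower against Input in ∆RPL22A, 5 in ∆RPL22B and 5 in WT, and their medians were -0.63, -0.98 and -0.93. RPT3 was the exception, at 0.01 in ∆RPL22A, 0.05 in ∆RPL22B and -0.11 in WT. Over all members, 2 were called higher and 2 lower in ∆RPL22A, near the 13.7% of genes called there (8.2% higher and 5.54% lower). In ∆RPL22B 3 were higher and 12 lower, where 29.4% of genes were called, 16.7% higher and 12.7% lower, and in WT 3 were higher and 10 lower, where 30.8% were called, 17.2% higher and 13.6% lower. With another scaling the split in ∆RPL22A was 1 higher and 3 lower (relative log expression) or 1 higher and 4 lower (without the ribosomal DNA). The ∆RPL22A count of 4 was 0 without Input replicate 2, 0 without Monosome replicate 2 and 9 without the 4 libraries named above. The ∆RPL22B count of 15 was 8 without Input replicate 2 and 3 without Monosome replicate 1. The WT count of 13 was 7 without Input replicate 1, 8 without Input replicate 2 and 7 without Monosome replicate 2. RPT2 and RPN1 were called lower in each strain, where 3.66% of genes were, and PRE7, a beta-ring gene, was called higher in each, where 6.9% were. RPT2, whose protein helps to open the core, had 6.11 and 7.48 CPM in Monosome of ∆RPL22A against 11.8 and 14.2 CPM in Input, 4.54 and 7.02 against 13.2 and 15 CPM in ∆RPL22B, and 4.77 and 4.23 against 14 and 13 CPM in WT. The pools did not overlap in any strain. RPT2 fell by 0.95 ± 0.27, 1.31 ± 0.29 and 1.55 ± 0.28 on the log2 scale (adjusted p = 0.0163, 0.0013 and 0.000158). The ∆RPL22A call was lost without Input replicate 2 or either Monosome library, with adjusted p of 0.003 to 0.201 over its alternatives, and the ∆RPL22B call without Monosome replicate 1, with adjusted p up to 0.0672.

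PolysomeHigh held more PRE8, PRE10 and PRE7 and less SCL1 than Input, in every strain. PRE8, PRE10 and SCL1 all code for alpha-ring subunits. The 3 genes called higher in each strain compare with 3.46% of all genes, and the 1 called lower with 1.38%. In ∆RPL22A 7 members were called higher and 3 lower, where 16.9% of genes were called, 10% higher and 6.9% lower. In ∆RPL22B 8 were higher and 1 lower, where 16.5% were called, 10.6% higher and 5.93% lower. In WT 7 were higher and 1 lower, where 10.3% were called, 7.04% higher and 3.27% lower. The ∆RPL22A count of 10 was 4 and 5 without Input replicates 1 and 2, and 5 and 3 without PolysomeHigh replicates 1 and 2. The ∆RPL22B count of 9 was 3 without Input replicate 2, 5 without PolysomeHigh replicate 2 and 14 without the 4 libraries named above. The WT count of 8 was 1 and 3 without Input replicates 1 and 2 and 0 without PolysomeHigh replicate 1. PRE8 had 45.5 and 71.4 CPM in PolysomeHigh of ∆RPL22A against 30.7 and 20.4 CPM in Input, 66.9 and 63.2 against 16.7 and 15.5 CPM in ∆RPL22B, and 68.3 and 39.5 against 16.2 and 17.5 CPM in WT. All 6 PolysomeHigh libraries were above all 6 Input libraries, with the lowest in WT replicate 2 and ∆RPL22A replicate 1. On the log2 scale PRE8 rose by 1.18 ± 0.32, 2.01 ± 0.33 and 1.68 ± 0.33 (adjusted p = 0.011, 8.07e-05 and 0.00109). The ∆RPL22A call was lost without Input replicate 2 or PolysomeHigh replicate 2, with adjusted p up to 0.156, and the WT call without PolysomeHigh replicate 1, with adjusted p up to 0.0882.

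PRE10 had 56.3 and 77.7 CPM in PolysomeHigh of ∆RPL22A against 31.5 and 22.3 CPM in Input, 82.4 and 94.8 against 28.4 and 24.1 CPM in ∆RPL22B, and 87.8 and 55 against 26.6 and 27 CPM in WT. These pools did not overlap either, and the log2 fold change was 1.31 ± 0.31, 1.76 ± 0.31 and 1.41 ± 0.31 (adjusted p = 0.00475, 0.000214 and 0.00359). The ∆RPL22A call was lost without Input replicate 2 or PolysomeHigh replicate 2, with adjusted p up to 0.0619, and the WT call without Input replicate 1 or PolysomeHigh replicate 1, with adjusted p up to 0.145. SCL1 had 6.94 and 6.36 CPM in PolysomeHigh of ∆RPL22A against 16 and 20.4 CPM in Input, 7.18 and 6.81 against 14 and 17.4 CPM in ∆RPL22B, and 7.05 and 11.5 against 17.8 and 17.2 CPM in WT. Within each strain both PolysomeHigh libraries were lower, and WT replicate 2 was the highest of the 6. SCL1 fell by 1.44 ± 0.28, 1.17 ± 0.30 and 0.91 ± 0.29 on the log2 scale (adjusted p = 0.00128, 0.00689 and 0.0434). The ∆RPL22A call held without any single library. The ∆RPL22B call was lost without Input replicate 2 or PolysomeHigh replicate 2, with adjusted p up to 0.0884, and the WT call without either Input library or PolysomeHigh replicate 1, with adjusted p up to 0.425.

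Between the ribosome-bound pools, 5 of the 6 ATPase genes stood higher in PolysomeHigh than in Monosome in every strain, and RPT3 did not. Calls of higher were made for 4 ATPase genes in ∆RPL22A, 5 in ∆RPL22B and 5 in WT, with medians of 0.84, 1.24 and 1.35. RPT6 was the gene not called in ∆RPL22A (0.68, adjusted p = 0.0588), and RPT3 was at -0.18 ± 0.30, -0.22 ± 0.31 and -0.09 ± 0.31. Over all members, 9 were called higher and 2 lower in ∆RPL22A, where 25.8% of genes were called, 12.8% higher and 13% lower. In ∆RPL22B 11 were higher and 0 lower, where 14.9% were called and 7.66% higher, and in WT 10 were higher and 0 lower, where 22.2% were called and 10.3% higher. The ∆RPL22A count of 11 was 3 and 5 without Monosome replicates 1 and 2, 5 without either PolysomeHigh library and 17 without the 4 libraries named above. The ∆RPL22B count of 11 was 2 and 7 without Monosome replicates 1 and 2 and 4 without PolysomeHigh replicate 2. The genes called higher in all 3 strains were RPT1, RPT2, RPT4, RPT5, RPN1, RPN2 and the lid gene RPN7, where 3.9% of all genes were. RPT1 had 26.8 and 26.8 CPM in PolysomeHigh of ∆RPL22A against 12.5 and 16.7 CPM in Monosome, 21.8 and 29.3 against 10.9 and 12 CPM in ∆RPL22B, and 32.4 and 33.1 against 11.7 and 9.31 CPM in WT. Each PolysomeHigh library exceeded each Monosome library. RPT1 rose by 0.89 ± 0.26, 1.17 ± 0.28 and 1.60 ± 0.27 on the log2 scale (adjusted p = 0.0145, 0.00669 and 0.000197), and the ∆RPL22A and ∆RPL22B calls were each lost without Monosome replicate 1 or 1 PolysomeHigh library (replicate 1 in ∆RPL22A, replicate 2 in ∆RPL22B), with adjusted p up to 0.178 and 0.108. RPT2 had 13.6 and 13.6 CPM in PolysomeHigh of ∆RPL22A, 21.3 and 18.6 CPM in ∆RPL22B and 13.5 and 16.6 CPM in WT, all above the Monosome values given before. Its log2 fold change was 1.02 ± 0.27, 1.81 ± 0.30 and 1.71 ± 0.29 (adjusted p = 0.00779, 0.000297 and 0.000197), and the ∆RPL22A call was lost without Monosome replicate 1, with adjusted p up to 0.112.

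**Figure D2:**
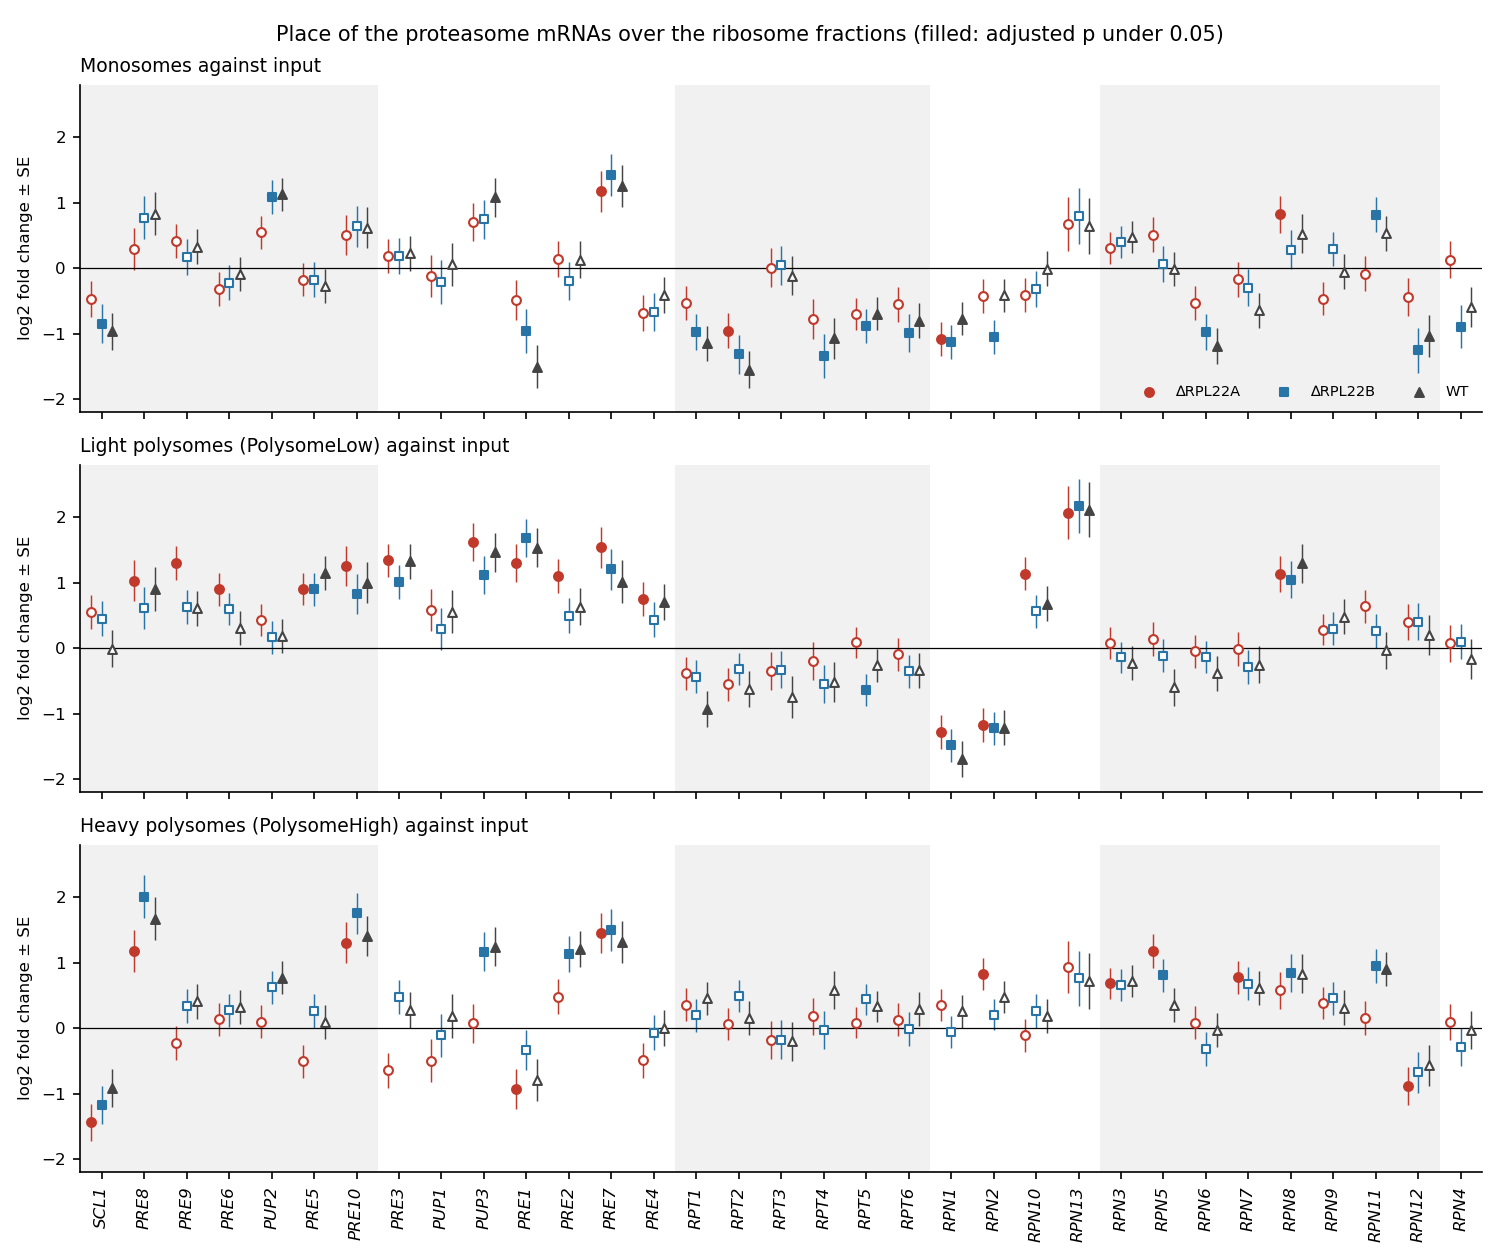
Log2 fold change (± SE) of each member in Monosome, PolysomeLow and PolysomeHigh against Input, 1 panel per fraction and 1 symbol per strain, with filled symbols for adjusted p under 0.05. PolysomeLow ranges from -1.69 for RPN1 in WT to 2.18 for RPN13 in ∆RPL22B.

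**Figure D3:**
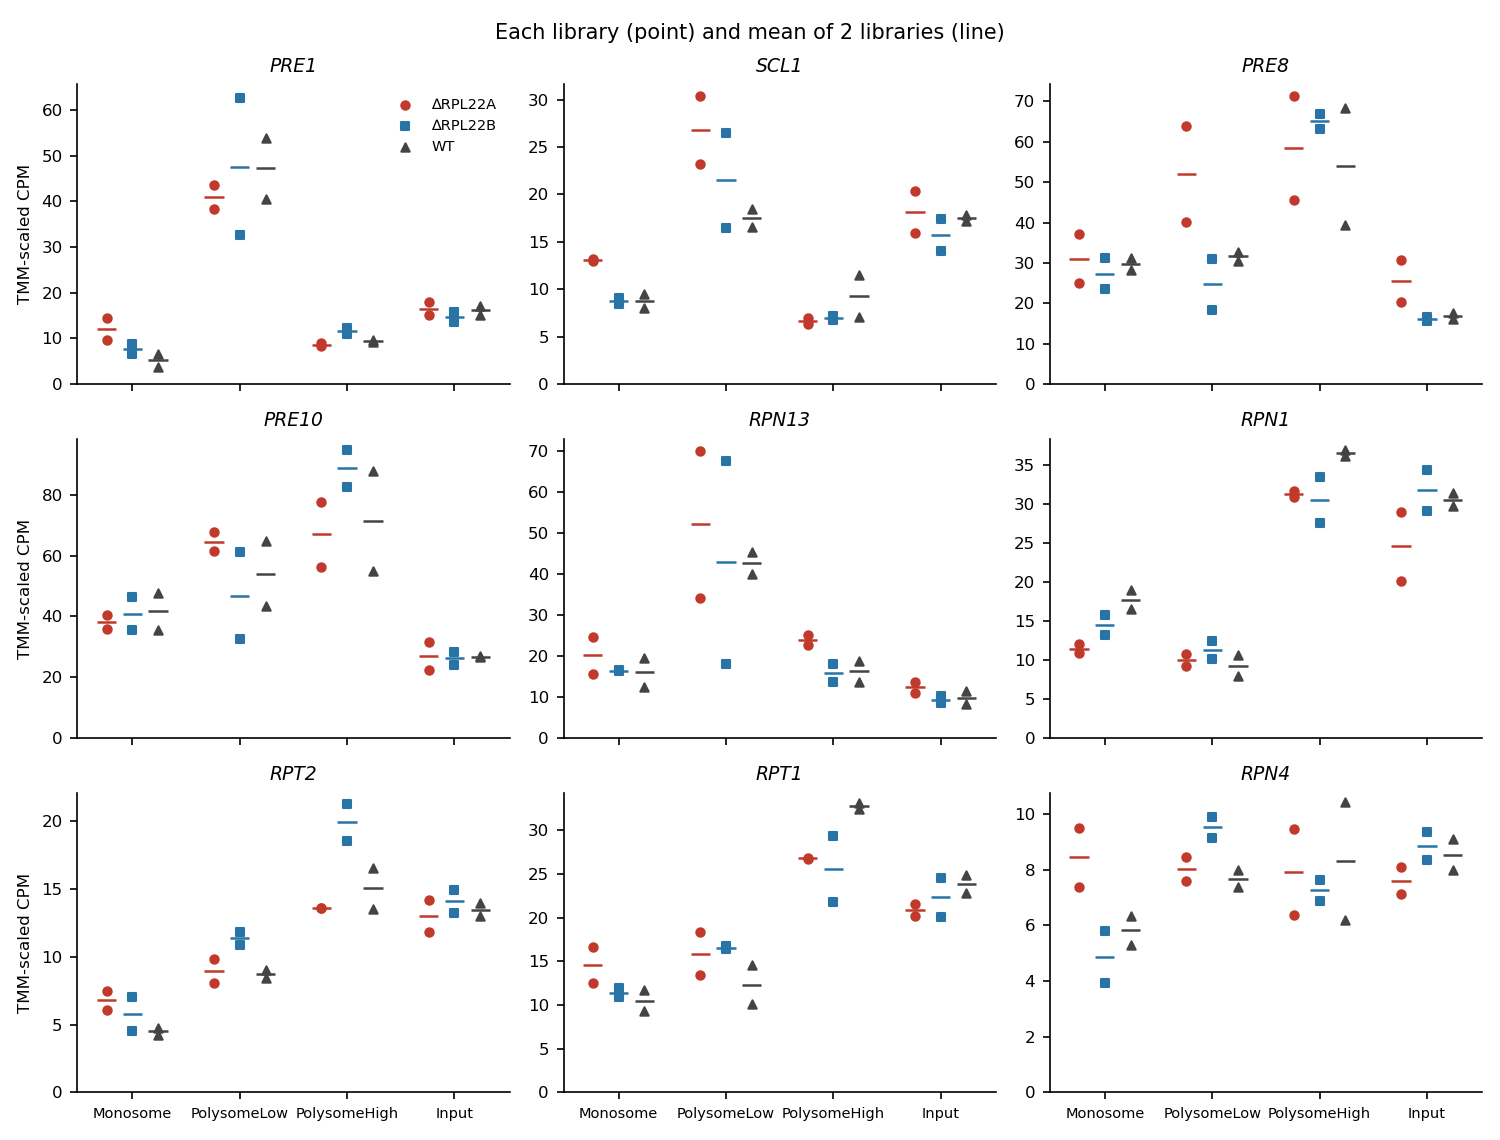
CPM in every library for 9 members, by pool and strain (2 libraries per group). RPN13 and PRE1 stand highest in PolysomeLow, PRE8 and PRE10 in PolysomeHigh, and the RPT1 and RPT2 levels in PolysomeHigh exceed those in Monosome.

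The order of the members in PolysomeLow followed their coding length. Across the 32 subunit genes, Spearman's rho between coding length and the PolysomeLow-to-Input log2 fold change was -0.86 in ∆RPL22A, -0.87 in ∆RPL22B and -0.87 in WT. Across all 5301 tested genes with a length it was -0.69, -0.77 and -0.73. These are descriptions across genes that share their libraries, and proteasome genes and all genes had the same sign. Alpha-ring genes span 705 to 867 coding bases and beta-ring genes 597 to 864, while ATPase genes span 1218 to 1404, so that subcomplex and length cannot be told apart for these groups. The base holds both ends, RPN13 with 471 bases and RPN1 with 2982, and these were the highest and the lowest member in PolysomeLow against Input in all 3 strains. RPN8, a lid gene of 1017 bases, had log2 fold changes of 1.13, 1.05 and 1.30. For PolysomeHigh against Monosome the relation ran upward, with rho of 0.71 in ∆RPL22A, 0.51 in ∆RPL22B and 0.56 in WT over subunit genes and 0.63, 0.38 and 0.44 over all genes. PolysomeHigh against Input gave 0.33, -0.14 and -0.02 over subunit genes and 0.34, -0.16 and -0.0074 over all genes. The ends of its order were SCL1 with 759 bases in each strain and, at the top, PRE7 in ∆RPL22A and PRE8 in ∆RPL22B and WT.

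**Figure D4:**
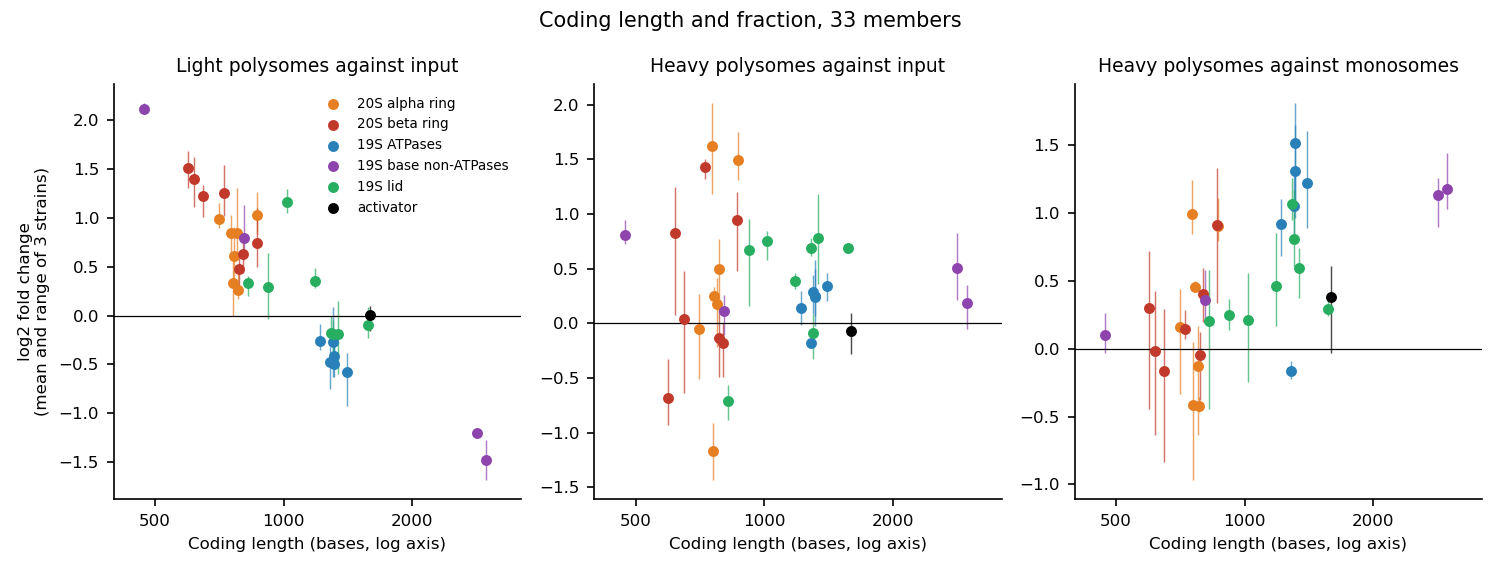
Log2 fold change against coding length (bases, log axis) for the 33 members, as the mean and range of 3 strains, for PolysomeLow against Input, PolysomeHigh against Input and PolysomeHigh against Monosome. Points fall with length in the first panel and lie without a single trend in the second.

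In Input no member was called different between strains. EdgeR's quasi-likelihood test called 0 of 33 for ∆RPL22A against WT, 0 for ∆RPL22B against WT and 0 for ∆RPL22A against ∆RPL22B, where 4.65%, 0.335% and 5.26% of all genes were called. At an unadjusted p under 0.05 there were 3, 0 and 4 members (20.3%, 1.47% and 23.0% of all genes), and DESeq2 called 0 in each. A level per culture does not tell fewer cells with a transcript from less of it per cell. Of the 14 core genes, 13 had a mean above WT in ∆RPL22A, with a median log2 fold change of 0.24, against -0.05 for the 18 genes of the 19S particle and -0.02 for all genes. Without the 4 libraries named above, which include ∆RPL22A Input replicate 1, 9 core genes were above WT with a median of 0.07. The 3 members with the smallest unadjusted p are given as values. RPN9, a lid gene, had 18.8 and 18 CPM in ∆RPL22A, 12.3 and 14.2 CPM in ∆RPL22B and 11.4 and 10.7 CPM in WT. The ∆RPL22A libraries were the highest, and the log2 fold change over WT was 0.73 ± 0.25 (adjusted p = 0.0857). RPN2 had 16.4 and 23.4 CPM in ∆RPL22A against 27.7 and 29.8 CPM in ∆RPL22B, a log2 fold change of -0.54 ± 0.24 (adjusted p = 0.174), and WT lay between with 25.9 and 26.3 CPM. PRE3, whose Input values stand above, differed by 0.58 ± 0.26 between ∆RPL22A and WT (adjusted p = 0.207).

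In PolysomeLow 2 members were called for ∆RPL22A against WT and 4 for ∆RPL22A against ∆RPL22B, all higher. Against WT, 31 of 33 members had a log2 fold change above 0, mostly without passing the test. Their median was 0.37, where that of all genes was -0.05, and all members share the same libraries. Relative log expression scaling and leaving out the ribosomal DNA also gave 31. Both raised the median of all genes, by 0.031 and 0.033, so they could hardly lower this count. Without the 4 libraries it was 29. The test called 2 members higher against WT, PRE9 and RPN11, where 5.39% of genes were called and 3.42% higher. It called 4 higher against ∆RPL22B, namely PRE9, RPT5, PRE8 and PRE3, where 7.19% were called and 4.2% higher. With the compared groups only, these counts were 1 against WT and 0 against ∆RPL22B, and against ∆RPL22B relative log expression scaling and DESeq2 each called 7. ∆RPL22B against WT had 0 calls, where 0.353% of genes were called, with 0 members at an unadjusted p under 0.05 (4.83% of all genes) and 0 by DESeq2. The 2 comparisons share the ∆RPL22A libraries. None of these calls held without every single library. The count against WT was 0 without ∆RPL22A replicate 1, 1 without ∆RPL22A replicate 2, 0 without either WT library and 6 without the 4 libraries. The count against ∆RPL22B was 0 without replicate 1 of either strain, 2 without ∆RPL22A replicate 2 and 9 without ∆RPL22B replicate 2. By chi-square over sampling noise, divided by its degrees of freedom, the duplicates of the deletion strains differed most in PolysomeLow. It was 20.01 in ∆RPL22A and 34.3 in ∆RPL22B, against 3.26 in WT, whose widest pool was PolysomeHigh with 9.80. This measure grows with the number of counts. By correlation of log2 CPM, the ∆RPL22A duplicates were as close in PolysomeLow (0.963) as in PolysomeHigh (0.962), Input (0.960) and Monosome (0.956). The ∆RPL22B PolysomeLow duplicates were each nearest to a PolysomeLow library of another strain (0.934 and 0.954). The part of that scatter in these results was not tested.

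PRE9, the gene of the alpha subunit that yeast can live without, had 65.4 and 50.6 CPM in PolysomeLow of ∆RPL22A, 24 and 35.1 CPM in ∆RPL22B and 27.9 and 29.9 CPM in WT. The ∆RPL22A libraries lay above all others, by 0.98 ± 0.26 on the log2 scale over ∆RPL22B (adjusted p = 0.0182) and 1.01 over WT (adjusted p = 0.0185). Over the alternatives the adjusted p ran between 0.00249 and 0.382 against ∆RPL22B, lost without replicate 1 of either strain, and between 0.000586 and 0.185 against WT, lost without ∆RPL22A replicate 1 or either WT library. RPN11, which cuts ubiquitin chains off the substrate, had 25.6 and 24.8 CPM in ∆RPL22A, 15.1 and 14.6 CPM in ∆RPL22B and 11.5 and 14.3 CPM in WT. The duplicates lay close together and ∆RPL22A was highest. The log2 fold change over WT was 0.98 ± 0.28 (adjusted p = 0.0307, and 0.01 to 0.315 over the alternatives), and it was lost without any of the 4 libraries compared.

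PRE8 had 64 and 40.2 CPM in PolysomeLow of ∆RPL22A, 18.3 and 31.1 CPM in ∆RPL22B and 30.4 and 32.8 CPM in WT. The ∆RPL22A and ∆RPL22B libraries did not overlap, though 1 library of each stood out from its duplicate. Its log2 fold change over ∆RPL22B was 1.09 ± 0.32 (adjusted p = 0.0343, and 0.00545 to 0.381 over the alternatives), lost without replicate 1 of either strain. RPT5, an ATPase gene, had 24.8 and 27.3 CPM in ∆RPL22A, 12 and 17.4 CPM in ∆RPL22B and 19.1 and 18.5 CPM in WT. WT lay between the deletion strains, and the log2 fold change of ∆RPL22A over ∆RPL22B was 0.83 ± 0.24 (adjusted p = 0.0339, and 0.008 to 0.438 over the alternatives). That call was lost without either ∆RPL22A library or ∆RPL22B replicate 1. PRE3, with the PolysomeLow values given above, differed by 0.86 ± 0.25 between ∆RPL22A and ∆RPL22B (adjusted p = 0.0353, and 0.0151 to 0.429 over the alternatives), lost without the same 3 libraries.

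One member differed between strains in each of the other fractions. In Monosome RPN12, the lid subunit that joins last, had 10.5 and 15.5 CPM in ∆RPL22A, 3.63 and 7.02 CPM in ∆RPL22B and 6.74 and 3.81 CPM in WT. The ∆RPL22A libraries were highest, and counts of this gene were as low as 9. The log2 fold change was 1.15 ± 0.33 over WT (adjusted p = 0.0344) and 1.30 over ∆RPL22B (adjusted p = 0.04). It was the 1 member called in each of these comparisons, where 5.48% and 3.09% of genes were called (2.73% and 1.49% higher). Without the 4 libraries the counts were 3 and 2. The call over WT was lost without ∆RPL22A replicate 2 or either WT library (adjusted p of 0.00454 to 0.32 over the alternatives). The call over ∆RPL22B was lost without either ∆RPL22A library or ∆RPL22B replicate 1 (0.00525 to 0.475). In each of these fits the count was 0. ∆RPL22B against WT had 0 calls in Monosome, where 0.353% of genes were called, with 1 member at an unadjusted p under 0.05 (3.77% of all genes) and 0 by DESeq2.

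In PolysomeHigh PUP3 had 23.5 and 29.5 CPM in ∆RPL22A, 56.6 and 48.7 CPM in ∆RPL22B and 59 and 41 CPM in WT. Both ∆RPL22A libraries were below the other 4. The log2 fold change against ∆RPL22B was -0.996 ± 0.29 (adjusted p = 0.0431, and 0.000221 to 0.348 over the alternatives), the 1 member called where 5.43% of genes were, 2.97% lower. It was lost without any of the 4 libraries compared, which leaves a count of 0, and it did not pass against WT (-0.92 ± 0.30, adjusted p = 0.0831). ∆RPL22A against WT had 0 calls, where 3.27% of genes were called, with 3 members at an unadjusted p under 0.05 (16.4% of all genes), 0 by DESeq2 and 2 without the 4 libraries. ∆RPL22B against WT had 0 calls, where 0.316% were called, with 0 at an unadjusted p under 0.05 (4.81% of all genes) and 0 by DESeq2. The core genes had medians of -0.30 for ∆RPL22A against WT and -0.24 against ∆RPL22B, with 2 of 14 above 0 in each. Those of the 18 genes of the 19S particle were -0.06 and 0.03, and those of all genes 0.03 and -3.3e-05.

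**Figure D5:**
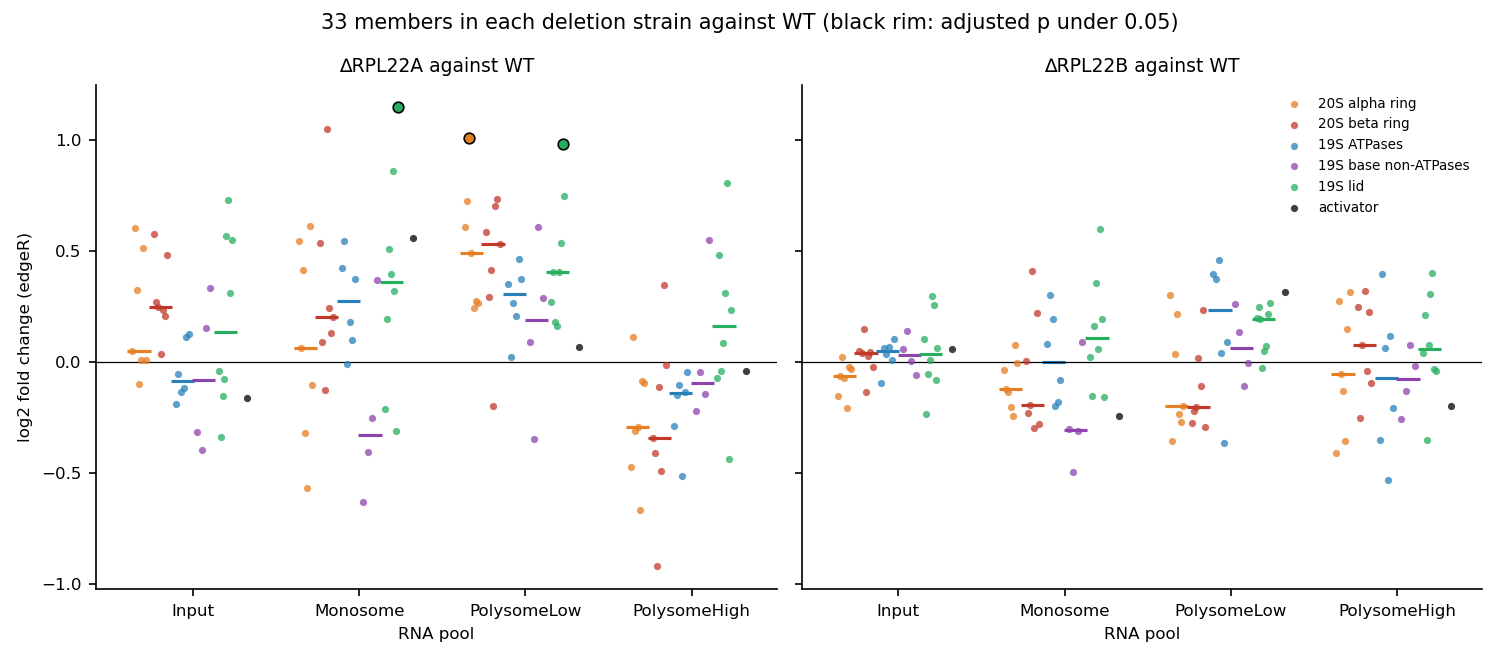
Log2 fold change of each member for ∆RPL22A against WT and ∆RPL22B against WT, by pool and subcomplex, with a line at the subcomplex median and a black rim for adjusted p under 0.05. The 3 rimmed points are RPN12 in Monosome and PRE9 and RPN11 in PolysomeLow, all in ∆RPL22A.

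Whether a strain moved a member's fraction-to-Input ratio was tested as an interaction. No member was called in any of the 9 comparisons of 3 fractions and 3 pairs of strains, where 0.0558% of genes were called for PolysomeLow in ∆RPL22A against WT and 0% in the other 8. At an unadjusted p under 0.05 there were 1, 0 and 3 members in Monosome (∆RPL22A against WT, ∆RPL22B against WT, ∆RPL22A against ∆RPL22B), 0, 0 and 1 in PolysomeLow and 3, 0 and 4 in PolysomeHigh. Over all genes the shares were 7.38%, 1.75% and 7.66% in Monosome, 7.77%, 2.12% and 5.30% in PolysomeLow and 6.99%, 2.27% and 12.3% in PolysomeHigh. DESeq2 called 0 in each. The smallest p belonged to PRE3 in PolysomeHigh. It had 13.5 and 14.5 CPM in PolysomeHigh of ∆RPL22A, 24.4 and 18 CPM in ∆RPL22B and 16.1 and 19.4 CPM in WT, so ∆RPL22A was lowest there, while it was highest in Input. The ratio differed by -1.12 ± 0.37 on the log2 scale between ∆RPL22A and ∆RPL22B (adjusted p = 0.296). PUP3 differed by -1.17 ± 0.41 in PolysomeHigh between ∆RPL22A and WT (adjusted p = 0.703), with Input values of 28.7 and 21.3 CPM in ∆RPL22A and 21.8 and 20.2 CPM in WT. RPN11 differed by -0.90 ± 0.38 in Monosome between ∆RPL22A and ∆RPL22B (adjusted p = 0.592). RPN11 had 16.1 and 14.4 CPM in Monosome of ∆RPL22A and 21.2 and 22.3 CPM in that of ∆RPL22B, and 15.8 and 16.5 against 11.7 and 12.9 CPM in Input. In PolysomeHigh the core genes had a median difference of -0.56 for ∆RPL22A against WT, with 1 of 14 above 0, and -0.54 against ∆RPL22B, with 0 of 14. The medians were -0.06 and 0.06 for the 19S particle and 0.05 and -0.0059 for all genes. Across all genes, rho between coding length and the PolysomeHigh-to-Input log2 fold change was 0.34 in ∆RPL22A, -0.16 in ∆RPL22B and -0.0074 in WT. Core genes have 597 to 867 coding bases, and the part of length in these medians was not tested. The comparisons with WT and with ∆RPL22B share ∆RPL22A libraries. In simulated counts the test found 1% of 2-fold and 65% of 4-fold changes in the PolysomeHigh ratio.

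RPN4 was called in 1 comparison between pools and in 0 between strains. It had 7.12 and 8.11 CPM in Input of ∆RPL22A, 8.34 and 9.36 CPM in ∆RPL22B and 7.99 and 9.11 CPM in WT. In Monosome it had 7.4 and 9.49 CPM in ∆RPL22A, 3.93 and 5.78 CPM in ∆RPL22B and 5.3 and 6.34 CPM in WT. In PolysomeLow it had 7.61 and 8.46, 9.15 and 9.91, and 7.38 and 7.99 CPM in these strains. The strains overlapped in PolysomeHigh, with 9.48 and 6.36 CPM in ∆RPL22A, 6.89 and 7.64 CPM in ∆RPL22B and 6.21 and 10.4 CPM in WT. Per length, 61.2% of genes lay below RPN4 in Input of ∆RPL22A, 67.3% in ∆RPL22B and 66.4% in WT. In Input it differed by -0.17 ± 0.27 for ∆RPL22A against WT and 0.06 ± 0.27 for ∆RPL22B against WT on the log2 scale. The largest strain difference was 0.80 ± 0.35 in Monosome for ∆RPL22A against ∆RPL22B (adjusted p = 0.23). Against Input, Monosome differed by 0.13 in ∆RPL22A, by -0.89 ± 0.33 in ∆RPL22B (adjusted p = 0.0414) and by -0.59 in WT. The ∆RPL22B call was lost without any of the 4 libraries compared, with adjusted p of 0.0102 to 0.354 over the alternatives. In PolysomeLow and PolysomeHigh RPN4 had log2 fold changes against Input between -0.28 and 0.10 over the 3 strains, and none was called.

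Genes around the proteasome were read from 3 lists outside the members. Of 17 genes for assembly factors and proteasome-bound proteins, 8 were called higher and 2 lower in PolysomeLow against Input in ∆RPL22A, 9 and 3 in ∆RPL22B and 7 and 5 in WT, where 25.6%, 33% and 34.4% of all genes were called. SEM1, which codes for a very small lid protein, and UMP1, the core maturation factor, were among those higher, with log2 fold changes of 2.15 and 1.73 in ∆RPL22A, 2.88 and 1.92 in ∆RPL22B and 2.87 and 1.99 in WT. BLM10, a large activator of the core, was lower, at -1.02, -1.29 and -1.45. Of 16 genes for ubiquitin supply and delivery, 9 were higher and 3 lower in PolysomeHigh against Monosome in ∆RPL22A, 7 and 0 in ∆RPL22B and 5 and 0 in WT, where 25.8%, 14.9% and 22.2% of all genes were called. CDC48, the segregase that hands over substrates, rose by 1.90, 1.19 and 1.36. Between strains, 0 or 1 of the 17 genes was called in a comparison, and of the 16 genes at most 1 higher and 1 lower. Over all genes, 0.316% to 7.19% were called in these comparisons. STS1, which ties proteasomes to the nucleus, had 7.91 and 7.89 CPM in Input of ∆RPL22A against 3.64 and 4.63 CPM in WT. It was 0.94 ± 0.28 higher on the log2 scale (adjusted p = 0.0456). SEM1 had 13.3 and 10.9 CPM in Monosome of ∆RPL22A against 3.24 and 4.23 CPM in WT, 1.79 ± 0.46 higher (adjusted p = 0.0191). UBC4, a ubiquitin-conjugating enzyme with the near-identical paralog UBC5, had 40.4 and 43.1 CPM in Monosome of ∆RPL22A, 15.7 and 18.6 CPM in ∆RPL22B and 11.9 and 16.9 CPM in WT. It was 1.58 ± 0.29 above WT (adjusted p = 0.000997, and 8.76e-07 to 0.0819 over the alternatives). RAD23, a shuttle for ubiquitinated proteins, had 26.6 and 33.1 CPM in PolysomeLow of ∆RPL22A, 16.6 and 12 CPM in ∆RPL22B and 16.8 and 14.3 CPM in WT. It was 1.05 ± 0.26 above ∆RPL22B (adjusted p = 0.0132, and 0.00241 to 0.381 over the alternatives). UBI4, a polyubiquitin gene, ran the other way, with 5.95 and 7.48 CPM in Monosome of ∆RPL22A, 13.9 and 21.1 CPM in ∆RPL22B and 14.7 and 17.8 CPM in WT. It was lowest in ∆RPL22A, by -1.38 ± 0.35 on the log2 scale against ∆RPL22B (adjusted p = 0.0241, and 7.71e-05 to 0.249 over the alternatives) and by -1.27 ± 0.35 against WT (adjusted p = 0.0276, and 0.00275 to 0.22 over the alternatives). UBC5 had 2.35 and 3.64 CPM in PolysomeHigh of ∆RPL22A against 5.46 and 9.91 CPM in ∆RPL22B, a difference of -1.46 ± 0.43 (adjusted p = 0.0441, and 0.000715 to 0.471 over the alternatives). UBC4 lost its call over WT without WT Monosome replicate 1, and RAD23 its call over ∆RPL22B without PolysomeLow replicate 2 of either strain. STS1, SEM1 (in Monosome), UBI4 and UBC5 lost theirs without any of the 4 libraries compared.

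Of 7 genes that control Rpn4, 1 was called lower in Input for ∆RPL22A against WT and 2 for ∆RPL22A against ∆RPL22B, none higher, and none for ∆RPL22B against WT, where 4.65%, 5.26% and 0.335% of all genes were called. The list's median was -0.74, -1.03 and 0.27 in these comparisons, against -0.02, -0.03 and 0.0038 over all genes. In PolysomeLow against Input it was -0.14 in ∆RPL22A, -1.07 in ∆RPL22B and -0.60 in WT. Mean correlation of ∆RPL22A Input replicate 1 was 0.924 with its own pool and 0.908 with PolysomeLow. The parts of this library and of coding length in the Input medians were not tested. In the fractions 0 of the 7 were called between strains. There the medians for ∆RPL22A against WT were -0.32 in Monosome, -0.15 in PolysomeLow and 0.13 in PolysomeHigh. Against ∆RPL22B they were 0.30, -0.34 and 0.03. Input counts in ∆RPL22A were low, at 26 and 24 for PDR1 and 13 and 13 for UBR2. In Input PDR1, a transcription factor that acts on RPN4, had 2.04 and 2.56 CPM in ∆RPL22A, 6.37 and 3.77 CPM in ∆RPL22B and 6.17 and 5.64 CPM in WT. It was lowest in ∆RPL22A, by -1.37 ± 0.35 on the log2 scale against WT (adjusted p = 0.019, and 0.00402 to 0.264 over the alternatives). UBR2, the ubiquitin ligase that marks Rpn4, had 1.02 and 1.39 CPM in ∆RPL22A, 3.04 and 3.19 CPM in ∆RPL22B and 2.22 and 3.04 CPM in WT. The difference from ∆RPL22B was -1.39 ± 0.41 (adjusted p = 0.0461) and was lost without any of the 4 libraries. UBR1, a second ligase, had 3.21 and 6.61 CPM in ∆RPL22A against 10.7 and 10.5 CPM in ∆RPL22B, -1.13 ± 0.30 (adjusted p = 0.0222, and 0.00433 to 0.451 over the alternatives). PDR1 and UBR1 lost their calls without ∆RPL22A Input replicate 1 or either library of the strain they were set against. In the same libraries RPN4 was not called.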

How the data were processed

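RNA of 24 libraries (3 strains, 4 pools, 2 libraries each) was counted per gene by the authors, and the deposited values are whole-number counts. The submitters' processing notes list RSEM 1.2.18, SAMtools 0.1.19 and cutadapt 1.4, with sacCer3 as the build and no word on their roles, and per the series design reads of 2 lanes were merged by barcode. The counting tool, its use of strand and its sharing of paralogous reads are not given in the sources used here, so counts of UBC4, UBC5 and UBI4, which have near-identical copies, are uncertain. No member overlaps another gene of the reference.

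Columns were matched to libraries by label, with 0 left over. Counts were filtered with filterByExpr of edgeR 4.0.16 (R 4.3.3, limma 3.58.1), which kept 5380 of 6369 genes, scaled by TMM and tested with edgeR's quasi-likelihood F-test in a model of 12 group means over all 24 libraries, with Benjamini-Hochberg adjustment over all tested genes at 0.05. The spread is thus pooled over the 12 groups of biological duplicates. CPM are TMM-scaled counts per 1000000 of the library total, ribosomal DNA included, and coding lengths come from the R64 reference, in which 5908 genes were matched. Standard errors were taken from the F statistic. On simulated counts, 32% of 2-fold and 99% of 4-fold changes were found for ∆RPL22A against WT in Input (5354 genes). Duplicates differed by more than sampling noise in every group. The members, gene lists and alternatives were chosen with earlier results of these data known. RPN4 and, in each family of comparisons, the members called with the lowest adjusted p (8 at most), or the 3 lowest p-values where none passed, are given with every library, and other members by count, range or as the exception of their subcomplex. Alternatives were relative log expression scaling, no low-count filter, no ribosomal DNA, DESeq2 1.42.0, compared groups only, a replicate block, and libraries left out. Figures were drawn with matplotlib 3.10.9 in Python 3.11.15.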

Additional observations from a re-analysis of the deposited data

How the results depend on the processing

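Members called in the pool and strain comparisons gave 1692 log2 fold changes under the alternatives, of which 0 changed sign and 325 lost the call. Of 141 calls, 37 of 132 between pools and 0 of 9 between strains held without each single library. Without the 4 libraries named in the report, the number of members called was 3 (∆RPL22A against WT) and 2 (∆RPL22A against ∆RPL22B) in Monosome, 6 in PolysomeLow and 2 in PolysomeHigh for ∆RPL22A against WT, 9 for Monosome against Input and 17 for PolysomeHigh against Monosome in ∆RPL22A, and 14 for PolysomeHigh against Input in ∆RPL22B. With the compared groups only it was 3 in Monosome and 1 in PolysomeLow for ∆RPL22A against WT, 0 in PolysomeLow for ∆RPL22A against ∆RPL22B, 4 for PolysomeLow and 17 for PolysomeHigh against Input in ∆RPL22B, and 5 for PolysomeHigh against Input in WT. ∆RPL22A against ∆RPL22B had 7 in PolysomeLow by relative log expression scaling and 7 by DESeq2, and 0 in PolysomeHigh without the ribosomal DNA. The cause was not tested.

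Leaving out 1 library moved the counts to 0 to 1 for ∆RPL22A against WT in Monosome and in PolysomeLow, for ∆RPL22B against WT in PolysomeLow and for ∆RPL22A against ∆RPL22B in Monosome. For ∆RPL22A against ∆RPL22B it gave 0 to 9 in PolysomeLow and 0 in PolysomeHigh. For Monosome against Input it gave 0 to 3 in ∆RPL22A, 3 to 11 in ∆RPL22B and 7 to 9 in WT. For PolysomeLow against Input it gave 2 to 15, 6 to 12 and 8 to 12, for PolysomeHigh against Input 3 to 5, 3 to 6 and 0 to 7, and for PolysomeHigh against Monosome 3 to 5, 2 to 9 and 7 to 9. Fewer libraries also leave less power, and a group left with 1 library is taken to vary like the others.

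Replicate numbers did not pair the libraries: deviations of same-numbered libraries correlated at -0.25 to 0.21 within a strain and -0.40 to 0.12 within a pool. With the replicate block, over all strains or within strains, ∆RPL22A against ∆RPL22B had 0 members called in PolysomeHigh, and no other count moved by more than 1.5 times.

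RPN4 was not called between strains, and its log2 fold change changed sign under some alternatives. Leaving out 1 library gave ∆RPL22A against WT -0.26 to 0.0068 in Input, -0.0053 to 0.15 in PolysomeLow and -0.39 to 0.39 in PolysomeHigh. It gave ∆RPL22B against WT -0.039 to 0.13 in Input, -0.52 to 0.034 in Monosome and -0.52 to 0.23 in PolysomeHigh, and ∆RPL22A against ∆RPL22B -0.20 to 0.38 in PolysomeHigh. Without the 4 libraries ∆RPL22A against WT was -0.0015 in PolysomeLow and 0.41 in PolysomeHigh, and ∆RPL22B against WT was 0.24 in PolysomeHigh. Without the ribosomal DNA ∆RPL22A against WT was 0.026 in PolysomeHigh. The control element was found in 27 members with its first 8 or 7 letters too. That count could not fall, because the shorter strings are part of the longer one. Over all promoters the share rose from 1.21% to 1.7% with 8 letters and 2.92% with 7. Counts as low as 9 limit PRE1 and RPN12 in Monosome. Changes of 2-fold were mostly missed at this depth in simulated counts. The changed genes there were drawn from all genes above a minimum count, and recovery for the members alone was not tested.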
